A study of Mus musculus with 6 samples.

Results

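The islet hormone genes are the 7 genes Ins1, Ins2, Iapp, Gcg, Sst, Ppy and Pyy, chosen by symbol from a table of counts for 23420 gene symbols. All 7 had a row in the table and all 7 passed the filter on low counts. The counts came from polyadenylated RNA of pancreatic islets of C57BL/6J mice, in 6 libraries. Mice labelled OIO, for which the series title has overfeeding-induced obesity, had received Ensure, a liquid diet, infused into the stomach over 9 days, with 13 to 18.5 kcal given daily. The Control mice were infused with saline by the same route over 9 days. Each group held 3 libraries. The labels give no genotype, sex or age and do not say whether a library came from a single mouse or from pooled mice, so p-values speak only of the spread among these libraries, and that spread may be technical. The comparison addresses how overfeeding bears on islet transcripts.

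Most of the hormone genes mark a cell type of the islet. Beta cells secrete insulin, which lowers blood glucose, together with islet amyloid polypeptide (amylin), the product of Iapp. Mice carry a pair of insulin genes, and Ins1 arose from Ins2 by retroposition. Alpha cells make proglucagon from Gcg and cleave it to glucagon, which raises blood glucose. Delta cells make somatostatin from Sst, which restrains the secretion of insulin and glucagon. Pancreatic polypeptide from Ppy, made in PP cells, and peptide YY from Pyy belong to the neuropeptide Y family.

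The coding sequences of Ins1 and Ins2 are shown because their likeness bears on every insulin value. In GENCODE M21 on GRCm38, 300 of 324 aligned bases, or 92.6%, were identical between the coding sequences, without the stop codon, of the transcripts Ins1-201 and Ins2-201. The longest stretch that both share has 54 bases and encodes part of the insulin A chain. It is written in lower case because no base differs.
Ins1 and Ins2: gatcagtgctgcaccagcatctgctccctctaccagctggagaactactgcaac
The window of 60 alignment columns with the most differences held 13. In the next pair, capitals mark the bases that differ from the other gene or, in Ins2, have no counterpart in Ins1.
Ins1: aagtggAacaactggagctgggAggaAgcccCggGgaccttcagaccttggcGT
Ins2: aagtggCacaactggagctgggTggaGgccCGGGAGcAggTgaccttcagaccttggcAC
Of the stretches of 31 bases in the whole transcript of Ins1, 47 of 1032, or 4.55%, also occurred in Ins2, and for Ins2-201 the same 47 were 10.5% of 448. No such stretch of the other 5 hormone genes was found in a transcript of any other gene. Ppy and Pyy, although related, were identical at 60.1% of 273 aligned coding bases, with no identical run longer than 7 bases.

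Ins1 lies on chromosome 19 from 52264297 to 52265476 on the plus strand and has 2 exons. Ins2-201, with 3 exons, lies on chromosome 7 from 142678659 to 142679726 on the minus strand. Iapp lies on chromosome 6 from 142298423 to 142303961 on the plus strand. It sits inside the span of Slco1a5, a transporter gene on the opposite strand with between 44 and 105 counts per library and no exon that overlaps those of Iapp. Gcg lies on chromosome 2 from 62474530 to 62483650 and Sst on chromosome 16 from 23889573 to 23890958, both on the minus strand. Ppy, from 102099930 to 102101319, and Pyy, from 102106676 to 102107832, are neighbours on the minus strand of chromosome 11 with 5356 bases between them. All 7 are annotated as protein-coding. A count is a total for the gene, with no split by exon or untranslated region.

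None of the 7 hormone genes passed the test between OIO and Control islets. Ins1 and Iapp lay higher in every OIO library than in any Control library, Ppy lay lower in every OIO library, and the other 4 genes overlapped between the groups. In edgeR's quasi-likelihood test with Benjamini-Hochberg adjustment over 14903 genes, 0 of 7 members were past an adjusted p of 0.05, where 7.37% of all genes tested were. At an unadjusted p under 0.05 there were 3 members, Ins1, Iapp and Pyy, or 42.9%, against 23.4% of all genes. DESeq2 called 2, Ins1 and Iapp, and limma voom called none. The groups did not overlap for 3 of 7 members, 2 higher and 1 lower in OIO, against 29.3% of all genes, with 14.1% higher and 15.1% lower. The members' median log2 fold change was −0.02, beside −0.01 over all genes tested. These are whole islets, in which fewer cells of a type and less RNA per cell cannot be told apart.

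Together the 7 genes took 29.8%, 30.95% and 31.5% of all counts in OIO replicates 1, 2 and 3 and 28.4%, 28.1% and 30.0% in Control replicates 1, 2 and 3. The OIO libraries were higher on average, and OIO replicate 1 lay below Control replicate 3. The means were 30.7% ± 0.85 in OIO and 28.9% ± 1.03 in Control islets (SD, n = 3 each), a difference of 1.88 percentage points (exact 2-sided permutation test, p = 0.2, where 0.1 is the smallest p that 3 against 3 libraries allow). Libraries held between 20968058 and 48178375 counts, and the widest 95% Wilson interval of the summed share reached 0.0196 percentage points to either side, which covers counting error only. The spread between libraries was far wider than this interval. Summed levels of cell type markers overlapped between the groups for acinar, leukocyte, alpha, endothelial and stromal or glial lists. The ductal and delta cell lists are described beside the results below.

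**Figure D1:**
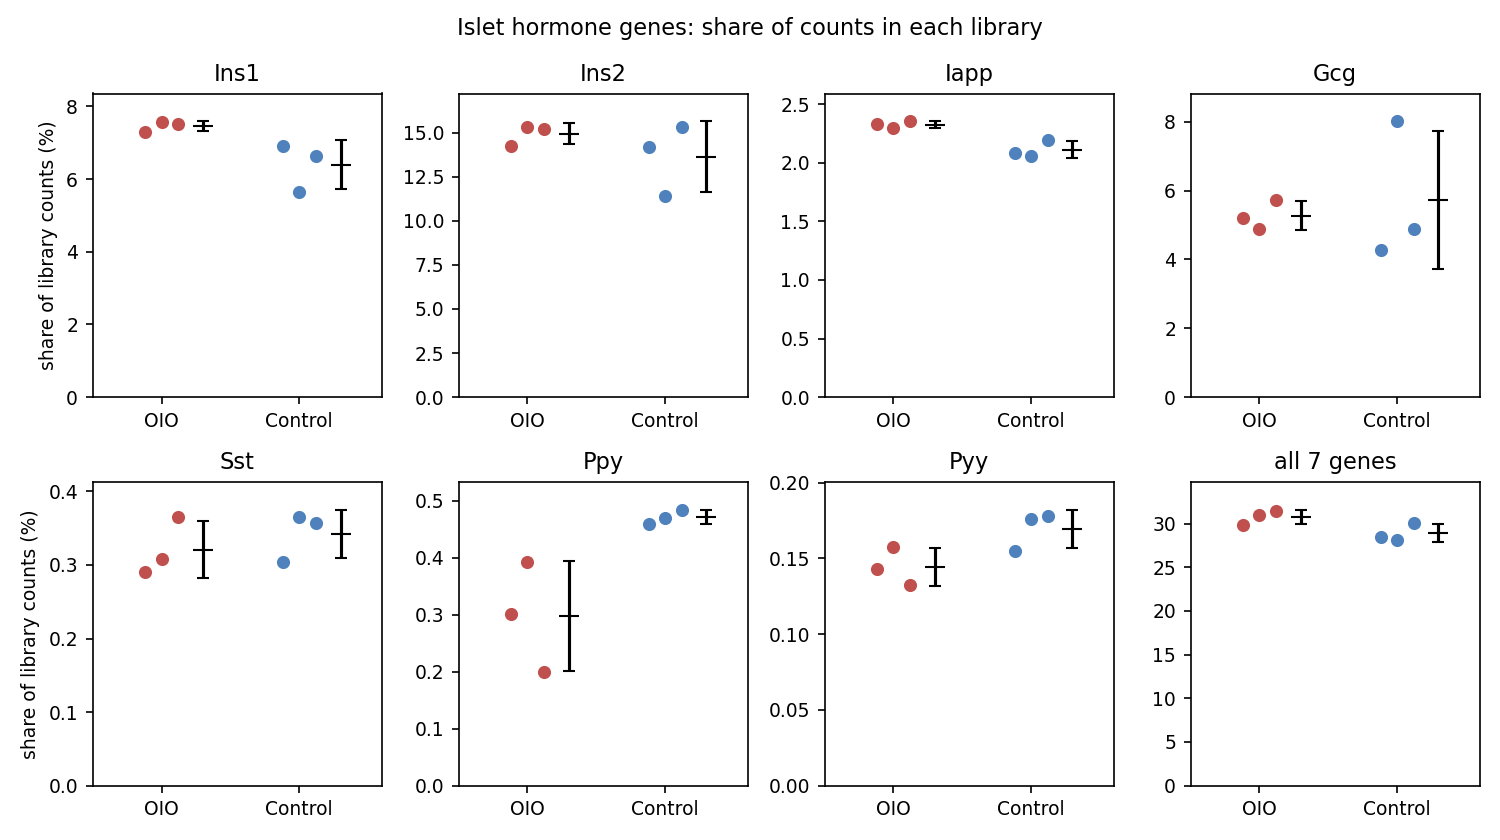
Share of all counts of a library (%, vertical axes from 0) taken by each hormone gene and by all 7, with 1 point per library, OIO in red and Control in blue, and the mean ± SD in black. Ins1 and Iapp are higher and Ppy is lower in each OIO library than in each Control library, and Control replicate 2 has the highest Gcg share at 8.02% and the lowest Ins2 share at 11.4%.

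Ins2 had the highest CPM of the table in every library, and Ins1 came next in all but Control replicate 2, where Gcg took that rank. Iapp ranked 4 in every library by CPM, the counts scaled to a common library size (edgeR's cpm function) after scaling by trimmed mean of M-values (TMM). Sst ranked between 10 and 13, Ppy between 8 and 16 and Pyy between 17 and 28. Divided by the length of the transcript, the levels kept the same order in both groups, from Ins2 through Ins1, Gcg, Iapp, Ppy and Sst to Pyy. In OIO islets Ins2 averaged 319667 ± 17856 CPM per kilobase, Ins1 71790 ± 2597, Gcg 49646 ± 4813, Iapp 28355 ± 886, Ppy 6069 ± 1904, Sst 4560 ± 658 and Pyy 2656 ± 200 (SD, n = 3). In Control islets the same levels averaged 279329 ± 43724 for Ins2, 58961 ± 6877 for Ins1, 51396 ± 17265 for Gcg, 24624 ± 950 for Iapp, 9220 ± 235 for Ppy, 4638 ± 397 for Sst and 2985 ± 195 for Pyy. Ppy and Sst overlapped in level in OIO islets and did not in Control islets, while Ins1 and Gcg overlapped in Control islets and did not in OIO islets. The annotated Ins1 transcript of 1062 bases is long beside the 478 bases of Ins2-201, and per kilobase of coding sequence the level of Ins1 was 235312 ± 8513 CPM in OIO islets, against 193261 ± 22540 CPM in Control islets (SD, n = 3 each), and the 7 genes kept the same order.

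Among the beta cell hormones, Ins1 had 73214, 76898 and 78612 CPM in the OIO libraries and 68552, 54461 and 64837 CPM in the Control libraries. All OIO values lay above all Control values, and the Control libraries were spread more widely. Its log2 fold change of OIO over Control was 0.28 (SE 0.09, 95% interval 0.09 to 0.48, adjusted p = 0.078). Ins2 had 143104, 156125 and 159174 CPM in OIO and 140794, 109954 and 149810 CPM in Control islets. Control replicate 2 was far below the others and Control replicate 3 lay within the OIO values. Its log2 fold change was 0.19 (SE 0.11, 95% interval −0.05 to 0.44, adjusted p = 0.33). Leaving out Control replicate 2 gave 0.07 (adjusted p = 0.60). With the counts of both insulin genes summed, which removes the question of how reads of the shared stretch were divided, the log2 fold change was 0.22 (SE 0.10, 95% interval 0.00 to 0.45, adjusted p = 0.21).

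Ins1 had 0.512, 0.493 and 0.494 counts per count of Ins2 in the OIO libraries and 0.487, 0.495 and 0.433 in the Control libraries. The groups overlapped, and Control replicate 3 had the lowest ratio. The log2 ratio differed by 0.08 between OIO and Control (exact 2-sided permutation test, p = 0.3, adjusted p = 0.45 over 6 ratios).

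Iapp had 23383, 23338 and 24648 CPM in OIO and 20612, 19888 and 21479 CPM in Control islets. The groups did not overlap, and the libraries within each group lay close together. Its log2 fold change was 0.20 (SE 0.06, 95% interval 0.07 to 0.34, adjusted p = 0.075). In DESeq2 Ins1 had an adjusted p of 0.0046 and Iapp of 0.0019, whereas in limma voom they had 0.091 and 0.075. When 1 library was left out, Iapp kept a log2 fold change between 0.18 and 0.23 and Ins1 between 0.19 and 0.35, and the lowest adjusted p of either gene in these fits was 0.062. Relative to insulin, Iapp had 108, 100.2 and 104 counts per 1000 counts of Ins1 and Ins2 in OIO and 98.5, 121 and 100.1 in Control libraries, which overlap (exact permutation test, adjusted p = 1).

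**Figure D2:**
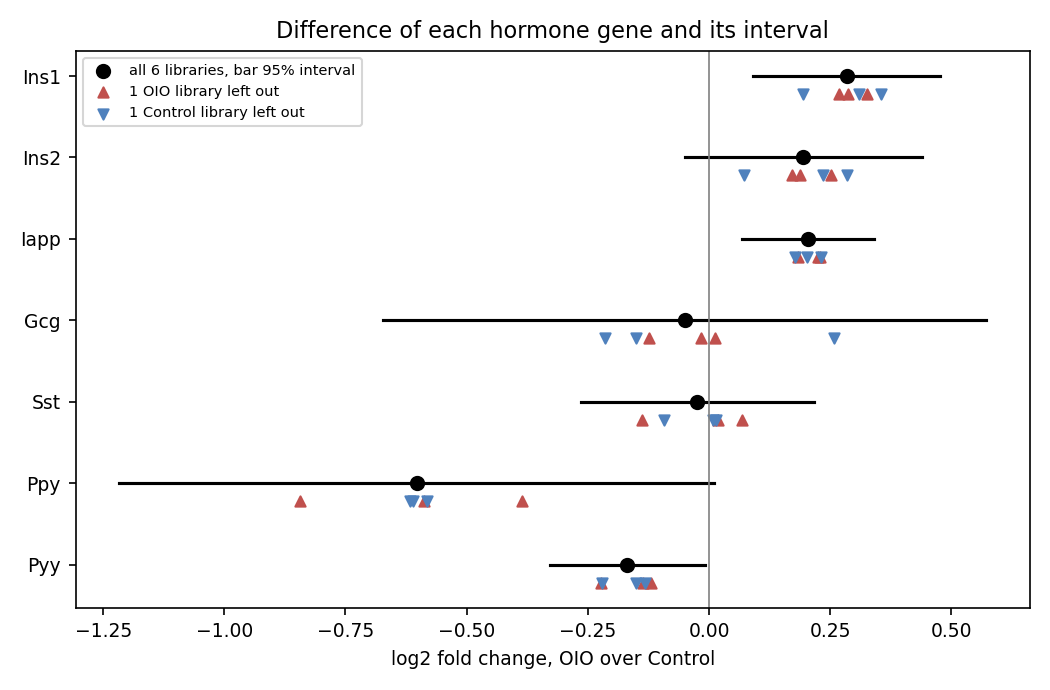
Log2 fold change of each hormone gene, OIO over Control (horizontal axis), as a black point with its 95% interval from edgeR, and below it the values with 1 OIO library (red) or 1 Control library (blue) left out. Ins1, Ins2 and Iapp stay above 0 and Ppy and Pyy below 0 in all these fits, while Gcg ranges from −0.21 to 0.26 and Sst from −0.14 to 0.07.

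Gcg, the alpha cell hormone gene, had 52329, 49829 and 59888 CPM in OIO and 42487, 77384 and 47885 CPM in Control islets. A single Control library, replicate 2, was higher than all others, and the remaining Control libraries were lower than every OIO library. The log2 fold change of −0.05 had a wide interval (SE 0.25, 95% interval −0.67 to 0.57, adjusted p = 0.93), which spans sizeable differences in either direction. When Control replicate 2 was left out, Gcg was at 0.26 (adjusted p = 0.15). Gcg made up 17.5%, 15.8% and 18.2% of the counts of the 7 hormone genes in OIO libraries, and 15.1%, 28.5% and 16.3% in Control libraries. Per 1000 insulin counts it had 242, 214 and 252 in OIO and 203, 471 and 223 in Control libraries.

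Markers of alpha cells moved with Gcg in Control replicate 2. The 9 markers summed to 2334, 2455 and 2551 CPM in OIO and to 1783, 2926 and 2030 CPM in Control libraries, and their part in the Gcg values was not tested. Irx2, an alpha cell transcription factor, was among the 3 genes whose profile over the 6 libraries was most like that of Gcg. It had 30.7, 29.7 and 33.2 CPM in OIO and 28.8, 42.4 and 30.99 CPM in Control islets. The median log2 fold change of the alpha cell markers was −0.02, beside −0.01 over all genes tested.

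Sst, the delta cell hormone gene, had 2913, 3130 and 3821 CPM in OIO and 3014, 3524 and 3494 CPM in Control islets. The groups overlapped throughout. Its log2 fold change was −0.02 (SE 0.11, 95% interval −0.26 to 0.22, adjusted p = 0.92). Of 7 delta cell markers, 1 rose and 1 fell, where 4.54% of all genes tested were higher and 2.84% lower. Ghsr, the ghrelin receptor, had 8.24, 9.14 and 9.92 CPM in OIO and 4.77, 5.27 and 6.33 CPM in Control islets, a log2 difference of 0.74 with an SE of 0.13 (adjusted p = 0.011). Fxyd6, a regulator of the sodium pump, had 160, 165 and 161 CPM in OIO and 192, 201 and 190.2 CPM in Control islets, a log2 difference of −0.26 with an SE of 0.05 (adjusted p = 0.014), a call that was lost in 3 of 6 fits on 5 libraries (adjusted p from 0.023 to 0.071). The summed level of the delta cell markers was lower in every OIO library, at 369 to 381 CPM against 383 to 440 CPM in Control libraries. Fxyd6 and Rbp4 each made up a large part of this sum, and Rbp4 averaged 168 CPM in both groups. The median log2 fold change of the 7 markers was −0.12, beside −0.01 over all genes tested. Only 1 of the 7 had a log2 fold change above 0. The part of the delta cell markers in the Sst values was not tested.

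Ppy had the log2 fold change farthest from 0 among the 7 hormone genes. Pancreatic polypeptide transcripts were at 3021, 3993 and 2089 CPM in OIO and at 4557, 4529 and 4745 CPM in Control islets. All OIO libraries lay below all Control libraries, and the OIO libraries differed among themselves far more than the Control libraries did. The SD of log2(CPM + 1) was 0.47 in OIO and 0.04 in Control islets. The log2 fold change was −0.60 (SE 0.24, 95% interval −1.22 to 0.01, adjusted p = 0.22). It passed without OIO replicate 2, at −0.84 (adjusted p = 0.028), and without OIO replicate 3 the value was −0.39 (adjusted p = 0.11). In limma voom it was −0.66 (adjusted p = 0.074) and in DESeq2 −0.60 (adjusted p = 0.14). The authors' deposited table lists Ppy at −0.66 on the log2 scale (adjusted p = 0.080). Over all other settings and fits its adjusted p lay between 0.074 and 0.40.

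Pyy, the neighbour of Ppy, had 1435, 1599 and 1388 CPM in OIO and 1534, 1697 and 1739 CPM in Control islets. OIO replicate 2 lay above Control replicate 1, and the other OIO libraries lay below all Control libraries. Its log2 fold change was −0.17 (SE 0.07, 95% interval −0.33 to −0.01, adjusted p = 0.19). Within OIO islets, replicate 2 was highest and replicate 3 lowest for both Pyy and Ppy, and within Control islets replicate 3 was highest for both.

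Relative to insulin within a library, both genes of the neuropeptide Y family were lower in every OIO library. Ppy had 14.0, 17.1 and 8.79 counts per 1000 counts of Ins1 and Ins2 in OIO libraries and 21.8, 27.5 and 22.1 in Control libraries. The mean log2 ratio differed by −0.89. Pyy had 6.63, 6.86 and 5.84 counts per 1000 in OIO and 7.33, 10.3 and 8.10 in Control libraries, a difference of −0.40. Each gave p = 0.1 in the exact 2-sided permutation test, the smallest p possible, and an adjusted p of 0.3 over the 6 ratios. Sst had 13.5, 13.4 and 16.1 counts per 1000 in OIO and 14.4, 21.4 and 16.3 in Control libraries, which overlap (difference −0.26, adjusted p = 0.4). A ratio does not show which of its members differed, and Control replicate 2, low in insulin, had the highest value for each of these hormones.

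**Figure D3:**
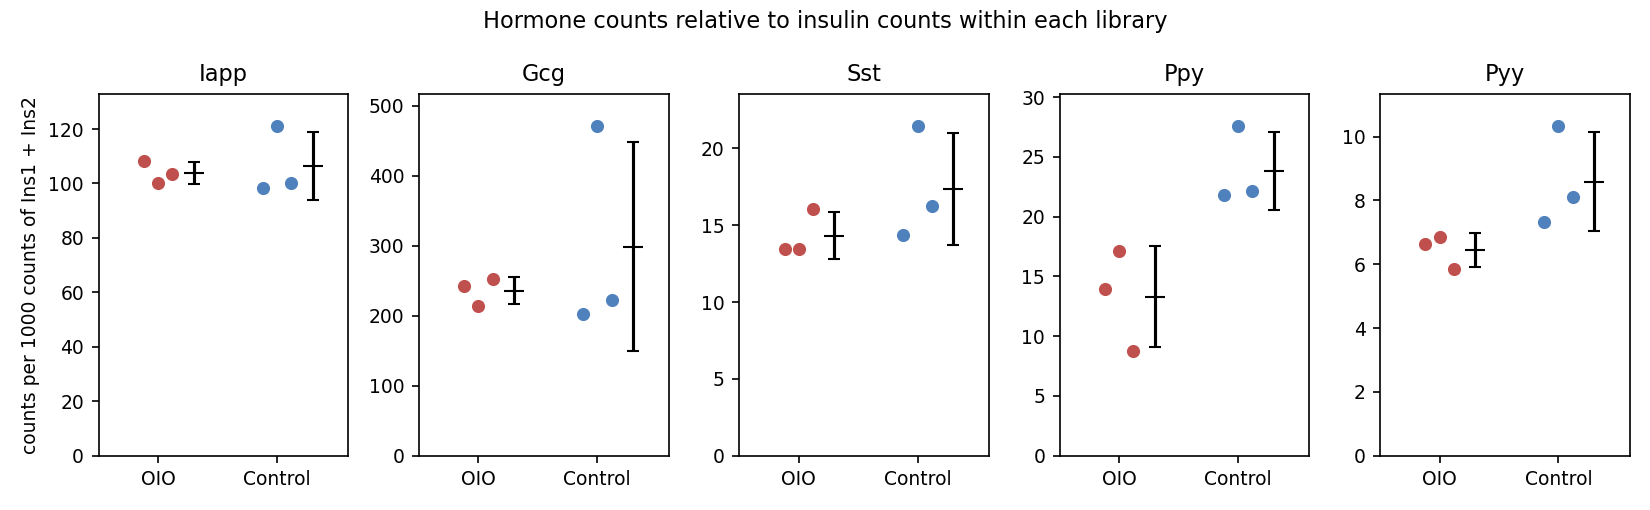
Counts of Iapp, Gcg, Sst, Ppy and Pyy per 1000 counts of Ins1 and Ins2 in the same library (vertical axes from 0), with 1 point per library, OIO in red and Control in blue, and the mean ± SD in black. Ppy and Pyy lie lower in each OIO library than in each Control library, and Control replicate 2 is the highest library in every panel.

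Acinar markers, which gauge exocrine tissue carried over with the islets, summed to 8594, 3654 and 4375 CPM in OIO and 10015, 5471 and 3077 CPM in Control libraries over 11 tested markers. They overlapped between the groups, and their part in the values of the hormone genes was not tested. Ductal markers summed to 366 to 489 CPM in OIO and 312 to 322 CPM in Control libraries. Of the 7 ductal markers, Krt7, a keratin, rose by 0.30 (adjusted p = 0.020), and the rest did not pass with all libraries. Over all genes tested, 4.54% were higher. The Krt7 call was lost in 2 of 6 fits on 5 libraries (highest adjusted p 0.059). Spp1, the gene of osteopontin, passed when OIO replicate 1 was left out (0.41, adjusted p = 0.019). The ductal sums moved with the groups as Ppy did, in the opposite direction, and their part in the Ppy values was not tested. In edgeR none of the 7 leukocyte and 5 endothelial markers tested passed with all libraries. Kdr, an endothelial receptor of VEGF, was lower in every OIO library, at −0.18 (adjusted p = 0.080). It passed in DESeq2 (−0.18, adjusted p = 0.044) and with scaling by library size alone (−0.25, adjusted p = 0.033). The endothelial list as a whole did not fall. Its log2 fold change was above 0 for 4 of the 5 markers, with a median of 0.08, beside −0.01 over all genes tested. Without Control replicate 3, the leukocyte markers Ptprc (0.70, adjusted p = 0.014) and Lyz2 (0.55, adjusted p = 0.023) passed as higher. Leukocyte markers summed to 140 to 145 CPM in OIO and 96.1 to 163 CPM in Control libraries. Endothelial markers summed to 519.7 to 607 CPM in OIO and 540 to 552 CPM in Control libraries.

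Among the genes that act on the hormones, transcription factors of the insulin gene showed few calls. Of 15 factors, none rose and 1 fell, with a median log2 fold change of 0.00, against 4.54% higher and 2.84% lower among all genes. That is 676 higher and 423 lower genes, and scaling by library size alone gave 498 higher and 1113 lower. Isl1, a LIM homeodomain factor of all islet endocrine cells, had 124, 119.8 and 97.1 CPM in OIO and 155, 155 and 136 CPM in Control islets, a log2 difference of −0.39 with an SE of 0.10 (adjusted p = 0.044). It passed in 1 of 6 fits on 5 libraries (adjusted p from 0.039 to 0.14) and missed with upper-quartile scaling (adjusted p = 0.051). Rfx6, needed for islet cell formation, was at 0.32 (adjusted p = 0.060) and passed in DESeq2 (adjusted p = 0.0043). It also passed when Control replicate 2 was left out (adjusted p = 0.025). Foxa2, a forkhead factor, was at −0.16 (adjusted p = 0.21) and Mafa, an activator of insulin genes in mature beta cells, at −0.14 (adjusted p = 0.29).

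Of 13 genes of prohormone processing and granins, 4 rose and none fell, where 4.54% of all genes tested were higher and 2.84% lower. The log2 fold change was above 0 for 12 of 13, and for 47.5% of all genes tested. The median was 0.16, beside −0.01 over all genes. DESeq2 called 7 of the 13 higher, adding Cpe, Chga and Scg2 (adjusted p = 0.026, 0.031 and 0.0085). Pcsk1, the convertase that cleaves proinsulin, had 922, 808 and 756 CPM in OIO and 657, 557 and 568 CPM in Control islets, and rose by 0.48 on the log2 scale, with an SE of 0.09 (adjusted p = 0.013). Vgf, a granin-like precursor, had 22.1, 20.3 and 28.8 CPM in OIO and 9.65, 13.0 and 13.0 CPM in Control islets, and rose by 0.995 on the log2 scale, with an SE of 0.16 (adjusted p = 0.012). Chgb, chromogranin B, rose by 0.36 (adjusted p = 0.027) and Pam, the enzyme that amidates amylin, pancreatic polypeptide and peptide YY, by 0.23 (adjusted p = 0.031). Pcsk1 and Vgf passed in each fit that left out a library. Chgb was lost in 4 of these 6 fits and Pam in all 6 (highest adjusted p 0.087 and 0.10), and both were lost when libraries were scaled by size alone (adjusted p 0.060 and 0.066). Pcsk2, the convertase that releases glucagon, did not pass, at 0.08 (adjusted p = 0.54).

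Of 22 other peptide hormone genes, 16 were expressed highly enough to be tested. Over all genes tested, 2.84% were lower and 4.54% higher. In edgeR 2 of the 16 fell and none rose. Both were near the lower end of expression. Tac1, the gene of substance P, had 1.96, 2.39 and 1.52 CPM in OIO and 4.18, 4.57 and 5.58 CPM in Control islets, a log2 difference of −1.28 with an SE of 0.21 (adjusted p = 0.0072). Grp, the gene of gastrin-releasing peptide, had 1.15, 0.93 and 0.63 CPM in OIO and 1.71, 2.75 and 3.76 CPM in Control islets (−1.63, SE 0.33, adjusted p = 0.018), and was lost in 3 of 6 fits on 5 libraries (adjusted p from 0.012 to 0.074). Tac1 and Grp are best known as neuropeptide genes. None of the 8 stromal and glial markers passed. None of them had a log2 fold change above 0, where 47.5% of all genes tested did. Their median was −0.50, beside −0.01 over all genes. Their sums were 295, 177 and 157 CPM in OIO and 214, 196 and 512 CPM in Control libraries. Sox10, a glial transcription factor, was at −0.54 (adjusted p = 0.24), and the part of these markers in the values of Tac1 and Grp was not tested. Ghrl, the ghrelin gene of islet epsilon cells, had 11.7, 9.76 and 8.34 CPM in OIO and 16.5, 13.7 and 11.8 CPM in Control islets. These did not overlap, and its log2 fold change of −0.50 did not pass in edgeR (SE 0.15, adjusted p = 0.078). It passed as lower in DESeq2 (adjusted p = 0.028), with scaling by library size alone (adjusted p = 0.0495) and when Control replicate 3 was left out (adjusted p = 0.043). Ucn3, a beta cell peptide that stimulates somatostatin release, was at 0.26 (SE 0.07, adjusted p = 0.053). It passed as higher in DESeq2 (adjusted p = 0.0036), with upper-quartile scaling (adjusted p = 0.039), with no filter on low counts (adjusted p = 0.048) and without OIO replicate 1 (adjusted p = 0.038) or Control replicate 1 (adjusted p = 0.042). The median of the list was −0.32, beside −0.01 over all genes tested.

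Of 19 genes of receptors for islet hormones and their accessory proteins, 12 were tested. Of these, 1 fell and none rose, where 2.84% of all genes tested were lower and 4.54% higher. Their median was 0.09, beside −0.01 over all genes. Gipr, the receptor of the gut hormone GIP that enhances insulin secretion, had 33.7, 37.8 and 35.1 CPM in OIO and 65.8, 57.7 and 49.3 CPM in Control islets. Its log2 fold change was −0.69 (SE 0.10, adjusted p = 0.0055), and it passed in each fit that left out a library. Sstr3, a somatostatin receptor, was at 0.35 (adjusted p = 0.30), and Ramp2 and Ramp1, partners of the calcitonin receptor family that binds amylin, were at 0.29 and −0.24 (adjusted p = 0.13 and 0.20). Calcr itself had 0 counts in all libraries, and Npy4r, the pancreatic polypeptide receptor, listed under its older symbol Ppyr1, had between 1 and 4 counts per library.

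**Figure D4:**
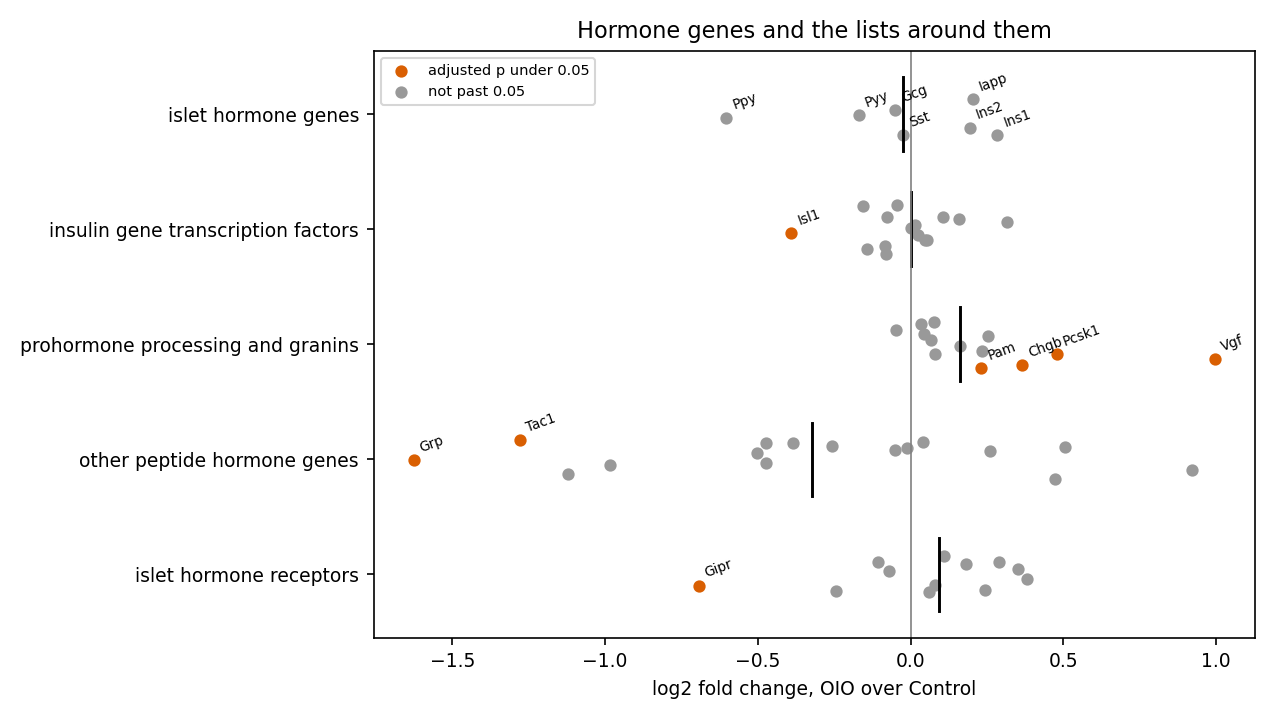
Log2 fold change, OIO over Control (horizontal axis), of the hormone genes and of each tested gene in 4 lists around them, with 1 point per gene, orange for an adjusted p under 0.05 and a black bar at each list's median. No hormone gene is orange, 4 of 13 processing and granin genes are orange on the right, and Grp, Tac1, Gipr and Isl1 are orange on the left.

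For each hormone gene, the 3 genes of most similar profile were found among 5212 genes whose log2 CPM averaged 5 or more, as those with the smallest root mean square difference of centred log2 CPM over the 6 libraries. For Ins1 these were Focad, Pigt and Babam1, with differences from 0.033 to 0.041 where the spread of Ins1 itself was 0.18. For Iapp they were Lman1, H13 and Prelid1 (0.013 to 0.021 against 0.11), and for Ins2 Tex261, Spc25 and Tmcc3 (0.061 to 0.072 against 0.18). Gcg was nearest to Gpx3, Irx2 and Nfkbia (0.082 to 0.15 against 0.28), Sst to Cdc37l1, Smc6 and Tceal3 (0.046 to 0.055 against 0.14), and Pyy to Tpst1, Icmt and Rint1 (0.028 to 0.041 against 0.12). No gene matched Ppy closely, the nearest being Fhdc1, Osbpl5 and Fam46a (0.205 to 0.239 against 0.42). The likeness rests on 6 libraries and is a description only.

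In the authors' deposited table the hormone genes had log2 fold changes of 0.29 for Ins1, 0.20 for Ins2, 0.20 for Iapp, −0.03 for Sst and −0.17 for Pyy. For Gcg the authors' deposited table listed −0.00097. The adjusted p in the authors' deposited table was 0.14 for Ins1 and for Iapp, and no hormone gene was past 0.05 there. The header does not state the direction of that comparison, and its sign was that of OIO over Control for 14558 of 14903 genes.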

How the data were processed

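Poly(A) RNA of islets was sequenced in 6 libraries, made with an Illumina TruSeq kit after Trizol extraction, per the labels' protocols. One deposited table holds whole-number counts for each gene symbol, not normalized. Builds GRCm38 and mm10 and the tools kallisto, limma and bcl2fastq appear in the submitters' processing notes without roles. How the counts were made was not stated in those notes. A second table the authors deposited holds log2 fold changes, average log2 expression, scores (a moderated statistic and log odds), p-values and adjusted p-values, per the file headers. Column codes (AB001) were matched to the codes in the sample titles (AB01) by their number. The plan allowed for estimated counts to be rounded, and none needed rounding.

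Counts of all genes were tested in edgeR 4.0.16 (R 4.3.3) with filterByExpr, TMM scaling and robust quasi-likelihood fits, with group as the only term, 4 residual degrees of freedom and Benjamini-Hochberg adjustment over 14903 genes at 0.05. SEs were taken as |log2 fold change| over the root of the F statistic, and 95% intervals use the fit's total degrees of freedom. Shares are of all counts in a library. Ratios were compared with exact 2-sided permutation tests (scipy 1.17.1) over 6 ratios. Transcripts, coordinates and lengths came from GENCODE M21 on GRCm38, taking for each gene the principal transcript of best support, and coding sequences were aligned with Biopython 1.88. Of 127 entries in 11 gene lists, 2 were matched by synonym and 1 had no match. Genes are named by a rule: all hormone genes, the 4 genes with the smallest p of every list (2 for marker lists), and 3 genes of most similar profile per hormone gene. Pcsk2, Calcr, Npy4r, Lyz2, Cpe, Chga and Scg2 are named outside this rule, chosen after their values were seen, and some genes that the rule names are not reported here. The hormone genes and lists were chosen with earlier results of these data known. Alternatives were other scalings, no filter, DESeq2 1.42.0, limma 3.58.1 voom, summed insulin genes and leaving out each library. The fit was tested on simulated counts.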

Additional observations from a re-analysis of the deposited data

How the results depend on the processing

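No paired analysis was possible because the labels number the libraries across both groups and give no pairing. With RLE, upper-quartile or library-size scaling, library sizes without the hormone genes, no filter or limma voom, all 7 hormone genes kept their direction and none passed 0.05. DESeq2 called Ins1 (0.29) and Iapp (0.21) and 14 genes of the 4 lists around the hormones instead of 8, the others being Rfx6, Cpe, Chga, Scg2, Ucn3 and Ghrl. When 1 library was left out, the log2 fold changes ranged from −0.21 to 0.26 for Gcg, reversing without OIO replicate 2 (0.01) or Control replicate 2 (0.26), and from −0.14 to 0.068 for Sst, reversing without OIO replicate 1 (0.068), without OIO replicate 2 (0.02), and when Control replicate 2 (0.02) or Control replicate 3 (0.01) was left out. Those of Ppy ranged from −0.84, a call without OIO replicate 2, to −0.39. The ratios to insulin reversed without Control replicate 2 for Gcg (0.15) and Iapp (0.066) and ranged from −0.46 to 0.15 and from −0.082 to 0.066. Over all genes, leaving out a library gave 460 to 817 calls instead of 1099, with 336 to 560 higher instead of 676 and 112 to 303 lower instead of 423, and 4 to 8 calls in the lists, where the fits with fewer libraries have less power by construction. Scaling by library size alone gave 498 higher and 1113 lower calls. With the counts of tested genes as the base, the summed share differed by the same 1.88 points. The cause of the other changes was not tested. For the shares of the 7 hormone genes, depth of at least 20968058 counts leaves counting error below the spread between the 3 libraries of a group. Counting error was not assessed for genes of few counts, such as Grp with 24, 44 and 22 counts in the OIO libraries.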
